A study of Arabidopsis thaliana with 6 samples.

Results

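Genes of 8 families that build, shape or anchor the plant cytoskeleton were compared between rosettes of Arabidopsis thaliana that overexpress PLANT CYSTEINE OXIDASE 1 (PCO1) and wild-type rosettes. Members were chosen by a rule on names, with no cut on their values, though with earlier results of these data known. A probe set had to be paired with exactly 1 gene by GEO's platform annotation. The symbol of that gene had to be IQD, TRM, NET, MAP65-, TUA, TUB, ACT or FH followed by a digit, with or without the prefix AT. This found 50 genes among the 13356 that the annotation pairs with a probe set of their own, namely 15 IQD, 15 TRM, 10 NET, 1 MAP65, 2 TUA, 5 TUB and 2 ACT genes and 0 FH genes. Each of the 50 had 1 such probe set, and no other probe set was added when RefSeq symbols and synonyms were searched with the same rule. Members of these families that the annotation does not pair in this way were not analysed here.

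Microtubules are hollow filaments of alpha- and beta-tubulin, encoded by TUA and TUB genes, and in plant cells they lie beneath the plasma membrane, where they guide the deposition of cellulose. MAP65 proteins cross-link neighbouring microtubules. IQD proteins bind calmodulin through IQ motifs, and many of them sit on microtubules. TRM proteins carry motifs that bind TON1, a protein needed to organise the cortical array and the band that marks the future plane of division. Actin filaments, encoded by ACT genes, carry organelles and vesicles, formins (FH) nucleate them, and NET (NETWORKED) proteins bind them and tie them to membranes.

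Each group had 3 samples, each on 1 Affymetrix Arabidopsis array. All plants were kept in normal air (normoxia) under 8 h of light at 22 °C and 16 h of darkness at 18 °C, and whole rosettes were taken 2 h into the light period, at 4 weeks by the sample characteristics and 5 weeks by the RNA protocol. The first group was wild type and the second carried 35S:PCO1, a transgene under the 35S promoter, a viral promoter active in nearly all tissues. The labels call the second group CDO1 in its titles and PCO1 elsewhere, and give neither the number of transgenic lines nor whether a sample was a single plant or a pool. PCO1 itself is not named in the annotation, so the overexpression was not checked here.

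Values are log2 signals from RMA, and differences are 35S:PCO1 minus wild type with their standard error (SE). A gene is said to have risen or fallen where limma's moderated test gave a Benjamini-Hochberg adjusted p under 0.05 over all 22746 probe sets tested. By that rule 191 probe sets changed, or 0.840%, with 144 lower (0.633%) and 47 higher (0.207%). Array medians lay between 6.11 and 6.15, and correlations between arrays were 0.996 to 0.999 within groups and 0.995 to 0.997 between groups. The number of arrays limits the precision, and no label says how replicates were grown. A p-value thus sets a difference only against the scatter of these particular samples, part of which may be technical. In limma's test that scatter is drawn partly from the other probe sets. A signal depends on the probes of its set, so levels of different genes are not ranked against each other. Bacterial dap and lys control probe sets, 12 in number, lay between 3.07 and 3.82 and are taken as the floor of the signal. In whole rosettes, fewer cells of a type and less RNA per cell cannot be told apart. Markers and other listed genes are called measured where the annotation pairs a probe set with that gene alone. The others may still have probe sets on the array. The leaf markers that were measured, 2 of 8 written, were RCA (Rubisco activase, mean 13.5 in 35S:PCO1) and LHCB4.1 (a light-harvesting protein, mean 13.4), both bright on every array.

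Of the 50 cytoskeleton genes, 1 fell, 0 rose and 49 did not pass. The gene that fell was NET1A, which encodes an actin-binding protein described at the plasma membrane and at plasmodesmata, the channels between plant cells. The share of members called, 1 of 50, is read against the 0.840% called among all probe sets. At an unadjusted p under 0.05 there were 4 members (NET1A, NET2D, TRM22 and TUB7), all with lower signal in 35S:PCO1, which is 8.0% of the 50. Among all probe sets 13.4% had such a p, 7.49% lower and 5.89% higher. The 3 arrays of one group lay wholly above or below the 3 of the other for 7 members, or 14.0%, against 18.4% of all probe sets. Of these 7, 3 were lower in 35S:PCO1 (9.31% of all probe sets were) and 4 higher (9.07%). These families thus held no larger share of separated genes than the array as a whole.

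The median difference of the 50 was -0.036, beside 0.0036 for all probe sets, and 35 of the 50 differences were below 0 (70.0%, against 48.4% of all probe sets). That lean moved with single arrays, since without wild-type replicate 3 the count below 0 was 27 of 50 and the median -0.012, while without 35S:PCO1 replicate 2 they were 36 of 50 and -0.057. Without 35S:PCO1 replicate 3 the median was -0.015. The median SE of a single member's difference was 0.068. The 95% interval of the difference lay wholly inside -0.5 to 0.5, less than 1.41-fold either way, for 49 of the 50 members (98.0%, NET1A being the exception), near the 97.3% of all probe sets for which it did. A p that misses the threshold does not show that 2 groups are alike.

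**Figure D1:**
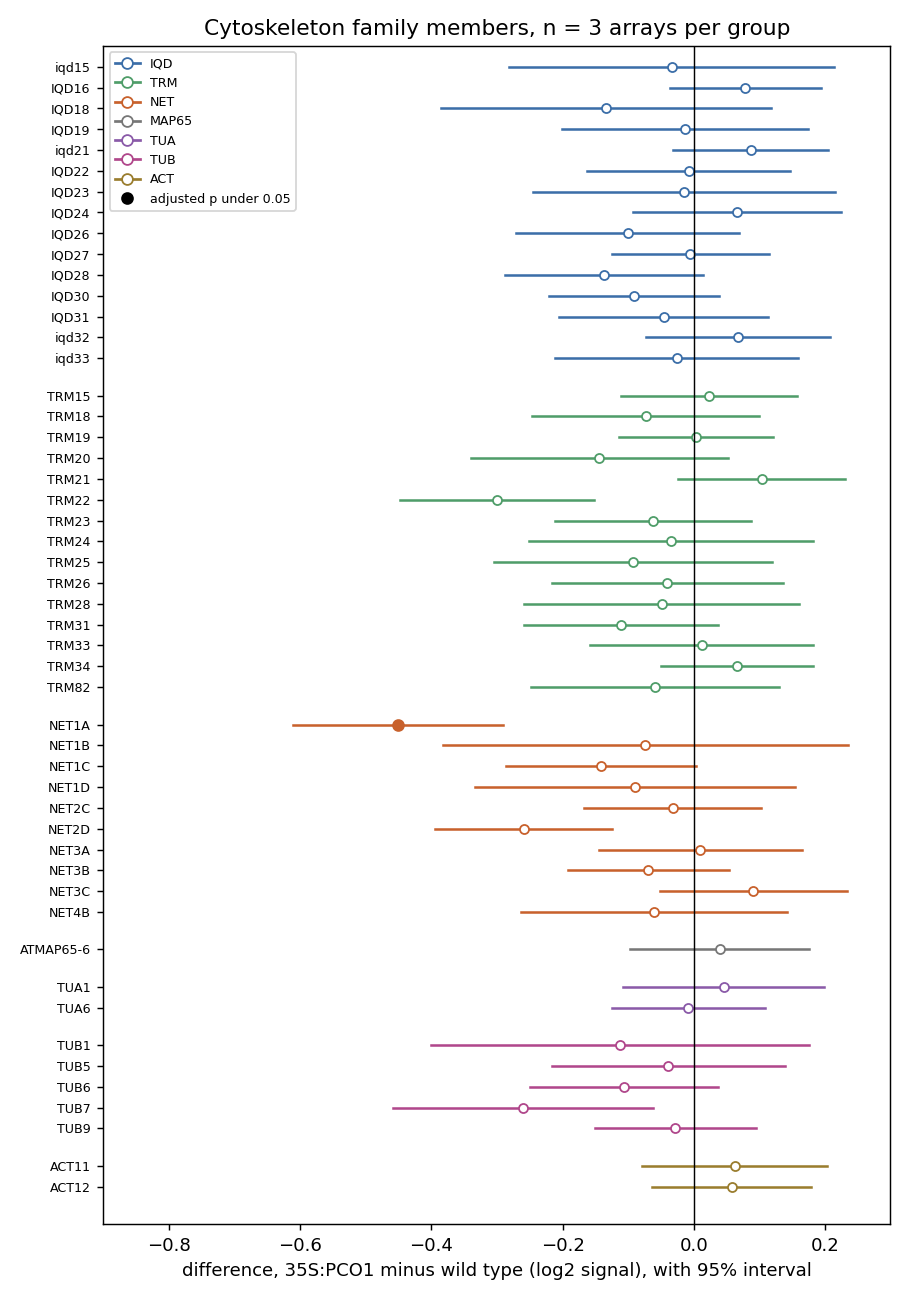
Difference of each of the 50 members between 35S:PCO1 and wild type (x axis, log2 signal, point) with its 95% interval (line), grouped by family along the y axis, n = 3 arrays per group. Only NET1A, the filled point at -0.45, passed the adjusted threshold, and the other intervals lie between -0.46 and 0.23.

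The NET family bind actin filaments directly and are sorted into 4 subgroups, NET1 to NET4, by sequence. The 10 measured here were NET1A to NET1D, NET2C, NET2D, NET3A to NET3C and NET4B. Among them 1 fell, 0 rose and 9 missed the threshold. NET1A had signals of 5.44, 5.42 and 5.63 on wild-type replicates 1, 2 and 3 and of 4.97, 5.11 and 5.05 on the 35S:PCO1 replicates. Every 35S:PCO1 array was thus below every wild-type array, and the gap between the groups was wider than the range within either. The means were 5.50 ± 0.12 and 5.05 ± 0.07 (SD, n = 3 each), a fall of 0.45 on the log2 scale (SE 0.07, 95% interval -0.61 to -0.29, limma adjusted p = 0.0272), or 1.37-fold. NET1A ranked 93 by p among all probe sets, and 0.928% of them had a larger difference in either direction.

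The call on NET1A changed with the arrays kept. Its difference stayed between -0.49 and -0.38 when each array was left out in turn, but the call was kept in 2 of these 6 cases, without wild-type replicate 1 (adjusted p = 0.0163) and without wild-type replicate 3 (0.0442). It was lost when wild-type replicate 2 was dropped (0.109), when 35S:PCO1 replicate 1 (0.127), 2 (0.0571) or 3 (0.152) was, and with the ordinary t statistic (0.297). On leaving out 1 array the unadjusted limma p of NET1A stayed between 1.59e-04 and 8.56e-04. Where the call was lost, few probe sets of the whole array passed. They were 5 on dropping wild-type replicate 2 or 35S:PCO1 replicate 1 or 3, and 105 on dropping 35S:PCO1 replicate 2. With the ordinary t statistic they were 0, beside 191 as reported, so these losses are not particular to NET1A.

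**Figure D2:**
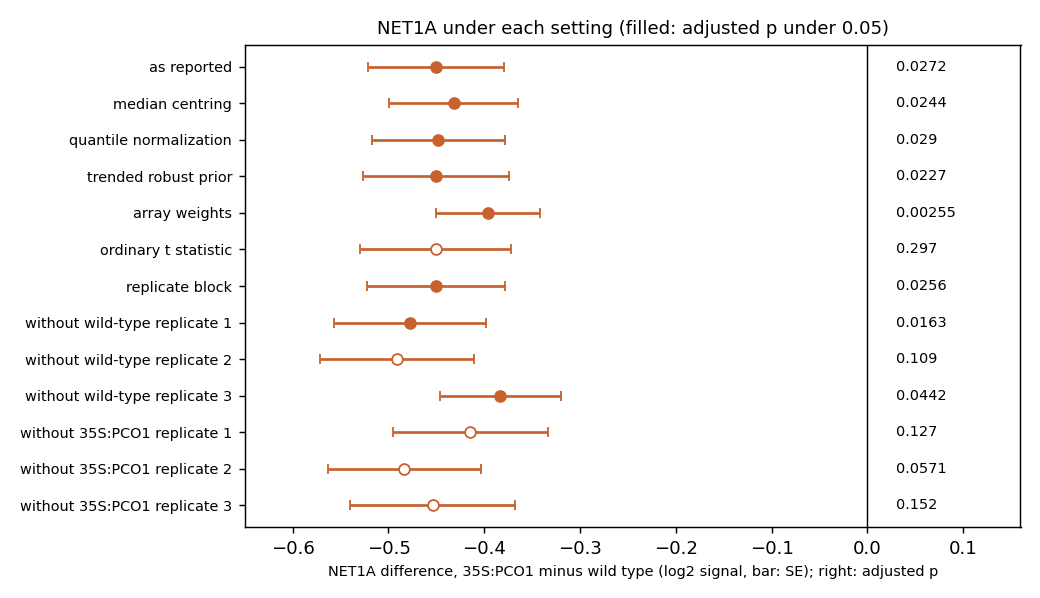
NET1A difference (x axis, log2 signal, with SE) as reported and under each alternative that kept the gene (y axis), with limma's adjusted p at the right; the ordinary t statistic is unmoderated. All 13 points lie between -0.49 and -0.38, while filled points, which pass the adjusted threshold, are 8 of the 13.

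NET2D, of a subgroup studied mainly in pollen, came nearest to NET1A in its family. Its signals were 5.43, 5.27 and 5.30 in wild type and 5.07, 5.10 and 5.04 in 35S:PCO1, so that the groups did not overlap. The difference was -0.26 (SE 0.06, limma adjusted p = 0.0961) and did not pass. NET2D and NET1A were the 2 NET genes with separate groups.

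The other NET1 genes did not repeat the pattern of NET1A. NET1C differed by -0.14 (SE 0.06, adjusted p = 0.385) with both group means, 3.66 and 3.51, inside the floor of the signal, where a fall could hardly be seen. NET1B differed by -0.07 (SE 0.14) and NET1D by -0.09 (SE 0.11), and their intervals, -0.38 to 0.23 and -0.33 to 0.15, are the widest of the family. All 4 NET1 differences were below 0 as reported and under median centring and quantile normalization, but only 2 of the 4 were without wild-type replicate 1. Their median was -0.12 as reported, -0.07 without wild-type replicate 1 and -0.24 without wild-type replicate 3, where all 4 were below 0.

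Among the remaining NET genes, NET3C, which works at contacts between the endoplasmic reticulum and the plasma membrane, differed by 0.09 (SE 0.06). NET3A, described at the nuclear envelope, differed by 0.01, and NET4B, of the subgroup that binds the vacuole membrane, by -0.06 (SE 0.09). NET3B and NET2C differed by -0.07 and -0.03, with group means inside the floor. Over the whole family the median was -0.07, beside 0.0036 for all probe sets, and 8 of 10 differences were below 0, or 5 of 10 without wild-type replicate 1.

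**Figure D3:**
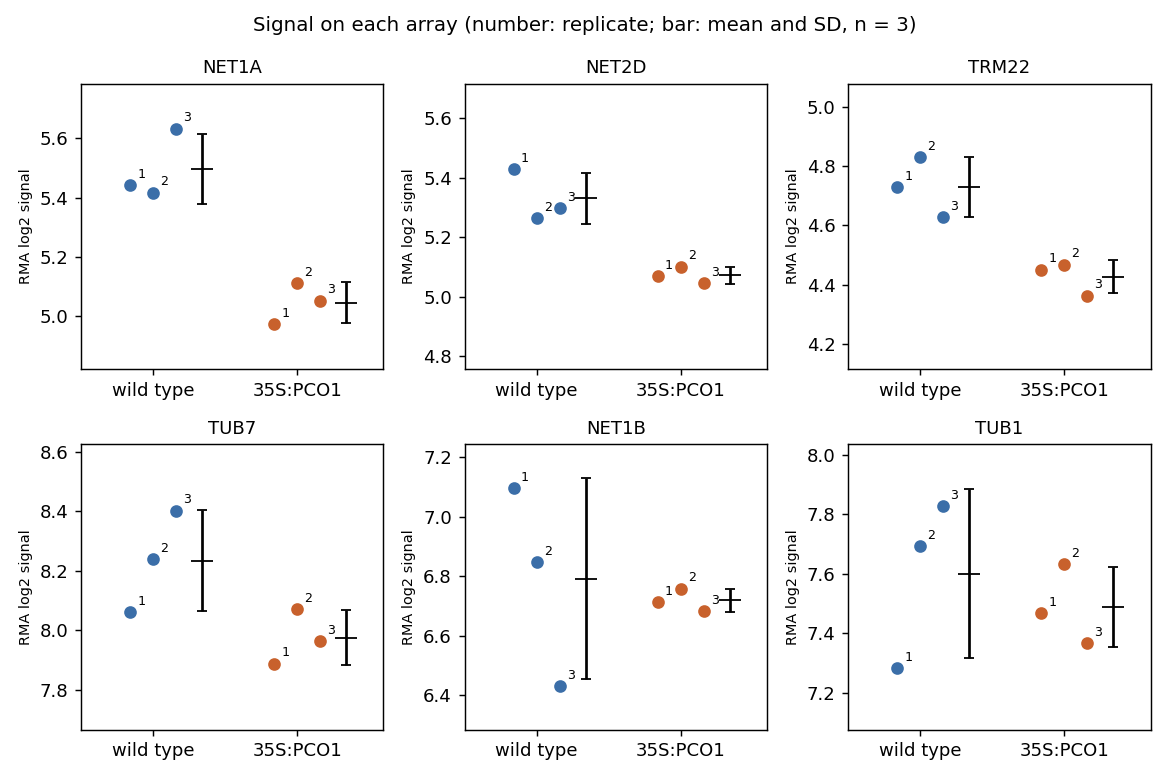
RMA log2 signal (y axis, a span of 0.96 in every panel) on each array of the 2 groups (x axis) for 6 members, with the replicate number beside each point and the group mean and SD (n = 3) at its right. The groups are separate for NET1A, NET2D and TRM22 and overlap for TUB7, NET1B and TUB1, and wild type is the more spread group for NET1B and TUB1.

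The TRM list held 15 genes by symbol, but TRM82 is annotated by RefSeq as a tRNA modification gene and shares only the letters of its name, so 14 encode TON1-recruiting motif proteins. None of the 15 passed (limma adjusted p from 0.0802), and 1 had an unadjusted p under 0.05. That gene was TRM22, with signals of 4.73, 4.83 and 4.63 in wild type and 4.45, 4.47 and 4.36 in 35S:PCO1. The groups did not overlap, and the difference was -0.30 (SE 0.07, adjusted p = 0.0802). No other TRM gene had all 35S:PCO1 arrays below all wild-type arrays.

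Above wild type on all arrays were TRM21 and TRM34. TRM21 had signals of 7.01, 6.94 and 6.88 in wild type and 7.08, 7.05 and 7.02 in 35S:PCO1, a difference of 0.10 (SE 0.06, adjusted p = 0.482). The step between the groups of TRM21, from 7.01 to 7.02, was far smaller than the range of either. TRM34 had signals of 4.48, 4.49 and 4.41 against 4.52, 4.53 and 4.53, a difference of 0.07 (SE 0.05). Its 35S:PCO1 arrays spanned 0.014 and its wild-type arrays 0.077.

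TRM20 differed by -0.14 (SE 0.09, adjusted p = 0.536), with 35S:PCO1 replicate 3 at 6.99 and all other arrays of both groups between 7.15 and 7.38. TRM31 differed by -0.11 (SE 0.07) with signals of 3.64 to 3.94, close to the floor, and TRM28 by -0.05 (SE 0.09) with both means inside it. TRM15, whose signal was 7.18, 7.13 and 7.09 in wild type, differed by 0.02 (SE 0.06), and TRM19 by 0.0032 (SE 0.05). The other TRM genes (TRM18, TRM23, TRM24, TRM25, TRM26 and TRM33) had differences from -0.09 for TRM25 to 0.01 for TRM33, and TRM82 differed by -0.06. The median of the 15 was -0.05, or -0.04 without TRM82, and 10 of 15 lay below 0. It was -0.0097 (8 of 15 below 0) without wild-type replicate 3 and -0.0061 (9 of 15) without 35S:PCO1 replicate 3. Among the 7 kept when the dimmest 40% of probe sets were dropped, it was 0.0032 (3 of 7 below 0).

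None of the 15 IQD genes passed, and none had an unadjusted p under 0.05 in limma's test, where 13.4% of all probe sets did. With array weights 1 of them, IQD28, did pass. As reported, IQD28 had the smallest p of the family, with signals of 6.35, 6.55 and 6.51 in wild type and 6.27, 6.39 and 6.33 in 35S:PCO1. Its groups overlapped at wild-type replicate 1, and the difference was -0.14 (SE 0.07, adjusted p = 0.428). IQD30, with signals of 6.65, 6.70 and 6.61 against 6.56, 6.63 and 6.50, differed by -0.09 (SE 0.06, adjusted p = 0.555).

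Separate groups were seen for 2 IQD genes, both higher in 35S:PCO1. The signal of iqd21 was 8.35, 8.36 and 8.35 in wild type and 8.39, 8.49 and 8.44 in 35S:PCO1, a difference of 0.09 (SE 0.05, adjusted p = 0.532). Its wild-type arrays were unusually close together, with an SD of 0.0064 that 99.3% of all probe sets exceeded. IQD16 had signals of 4.67, 4.65 and 4.68 against 4.79, 4.71 and 4.74, a difference of 0.08 (SE 0.05), and again a small wild-type SD of 0.013. Under limma, which draws such small variances towards the common value, neither stood out.

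IQD15 to IQD18 form a clade known as targets of auxin response factor signalling in the embryo, and 3 of its genes were measured. Here iqd15, IQD16 and IQD18 differed by -0.03 (SE 0.11), 0.08 (SE 0.05) and -0.13 (SE 0.11). The 2 with the larger SE, iqd15 and IQD18, shared 1 high array, wild-type replicate 3, at 4.85 for iqd15 and 4.66 for IQD18, while the other wild-type arrays lay between 4.24 and 4.49. IQD19, IQD22, IQD23 and IQD27 differed by 0.0049 to 0.015 in size. IQD27 had both means inside the floor, at 3.69 each. The remaining members, IQD24, IQD26, IQD31, iqd32 and iqd33, had differences between -0.10 for IQD26 and 0.07 for iqd32. The median over the family was -0.015, beside 0.0036 for all probe sets. Under median centring, which moves all genes alike, these medians were 0.0038 and 0.022. The family median was 0.0037 without 35S:PCO1 replicate 1 and -0.049 without 35S:PCO1 replicate 2.

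IQD19 and NET1B are direct neighbours in the RefSeq order of protein-coding genes (assembly TAIR10.1), the only such pair among the 50. IQD19 held steady in wild type (6.46, 6.47 and 6.42) and varied in 35S:PCO1 (6.27, 6.62 and 6.43). NET1B did the opposite, with 7.10, 6.85 and 6.43 in wild type and 6.71, 6.76 and 6.68 in 35S:PCO1.

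None of the 7 tubulin genes passed. TUB7, which encodes a beta-tubulin, had signals of 8.06, 8.24 and 8.40 in wild type and 7.89, 8.07 and 7.96 in 35S:PCO1. The groups just overlapped, with 35S:PCO1 replicate 2 at 8.07 and wild-type replicate 1 at 8.06. The difference of TUB7 was -0.26 (SE 0.09, 95% interval -0.46 to -0.06, limma adjusted p = 0.246). Without wild-type replicate 1 it was -0.35 (adjusted p = 0.0583) and without wild-type replicate 3 it was -0.18 (0.374).

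The other beta-tubulin genes differed less. TUB1 had signals of 7.28, 7.69 and 7.83 in wild type and 7.47, 7.63 and 7.37 in 35S:PCO1, a difference of -0.11 (SE 0.13, adjusted p = 0.774). TUB6 had signals of 9.40, 9.55 and 9.59 against 9.44, 9.41 and 9.37, a difference of -0.11 (SE 0.06, adjusted p = 0.532). The 35S:PCO1 arrays of both genes lay within, or just under, the wild-type range. TUB5 and TUB9, the latter known for expression in pollen, differed by -0.04 (SE 0.08) and -0.03 (SE 0.05). All 5 TUB differences were below 0 as reported and under each scaling tried, with a median of -0.11, but 3 of 5 were without wild-type replicate 3, with a median of -0.02.

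Of the alpha-tubulins, TUA6 had signals of 11.5 to 11.6 on all 6 arrays and differed by -0.0085 (SE 0.05, interval -0.12 to 0.11). TUA1, best known from pollen, differed by 0.05 (SE 0.07), with signals of 7.45, 7.50 and 7.64 in wild type and 7.63, 7.50 and 7.60 in 35S:PCO1. A probe set that the annotation assigns to both TUA5 and TUA3, and which is therefore no member, differed by -0.04 (SE 0.07, adjusted p = 0.865). Tubulin genes are close in sequence, so signals from relatives may add to each of these probe sets.

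The tubulins varied together among the wild-type arrays. In all 7 genes wild-type replicate 1 was the lowest of the 3, a place that replicate 1 held in 40.2% of all probe sets. With every gene set to a mean of 0, the 7 averaged -0.099 on wild-type replicate 1, 0.065 on replicate 2 and 0.144 on replicate 3. On the 35S:PCO1 arrays they averaged -0.048, 0.0044 and -0.066. The group values, 0.036 ± 0.124 and -0.036 ± 0.036 (SD, n = 3 each), thus differed by less than the wild-type SD. The same array was also the lowest wild-type array for both actin 5′ control probe sets, at 10.2 against 10.4 and 10.6 for the brighter, and the mean 3′ minus 5′ signal of 6 control pairs was highest there, at 0.761 against 0.688 and 0.581. That signal, which tracks how intact and how fully labelled the RNA was, stood at 0.579, 0.628 and 0.547 in 35S:PCO1. Its part in the tubulin values was not tested.

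**Figure D4:**
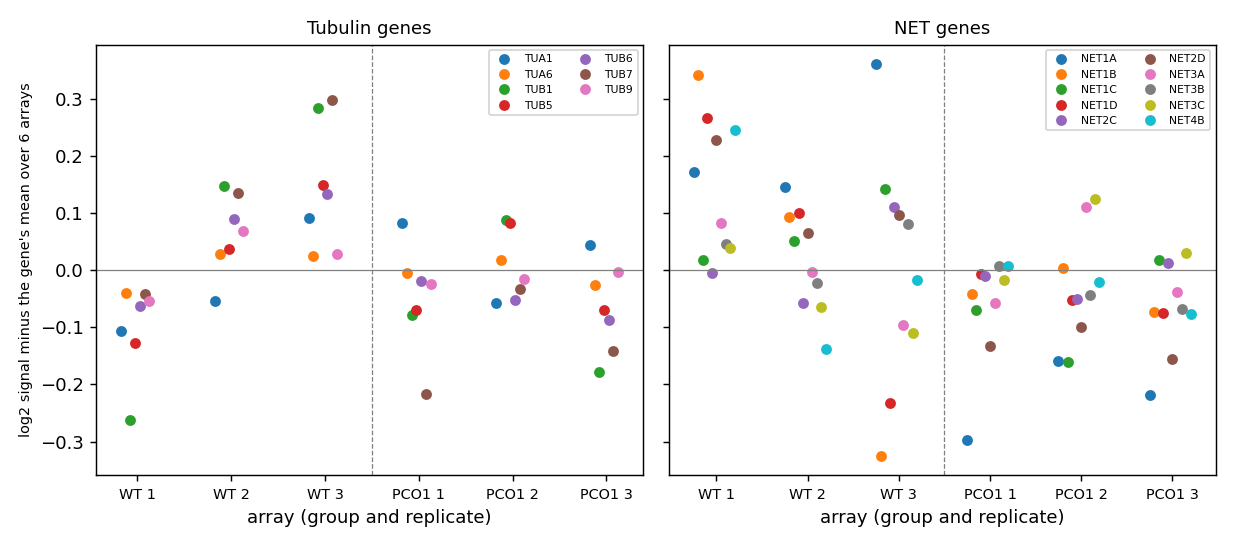
Log2 signal minus the gene's own mean over 6 arrays (y axis) for each array (x axis, wild type left of the dashed line), for 7 tubulin genes and 10 NET genes, 1 colour per gene. The tubulins sit lowest among the wild-type arrays in replicate 1, where NET1B, NET1D and NET4B sit highest.

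Some members, picked after their values were seen, varied in the opposite sense. NET1B, with a wild-type SD of 0.34 that 0.813% of all probe sets exceeded, NET1D (4.67, 4.51 and 4.18) and IQD23 (6.91, 6.73 and 6.44) were all highest in wild-type replicate 1 and lowest in replicate 3. Their 35S:PCO1 arrays were close together, with ranges of 0.076, 0.067 and 0.086. IQD22, IQD24, TRM15, TRM20, TRM21, NET3A and NET3C had the same highest and lowest wild-type replicates, with smaller wild-type SDs. How many of all probe sets had this order was not counted, so it is not read as a trait of these members. NET4B was also highest in wild-type replicate 1, at 5.31 against 4.92 and 5.04. In all, 7 of the 50 members (14.0%) had a wild-type SD above 0.198, the value that 5% of all probe sets exceed. These were NET1B, TUB1, NET1D, IQD23, IQD18, iqd15 and TRM25. Of these, TUB1, IQD18, iqd15 and TRM25 were highest in wild-type replicate 3, where TRM25 stood at 6.03 and all its other arrays were between 5.65 and 5.71.

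Markers of other tissues were read beside these values. Of 7 root markers written, 3 were measured. PYK10, an abundant beta-glucosidase of roots, had signals of 8.38, 8.19 and 7.68 in wild type and 7.55, 7.74 and 7.60 in 35S:PCO1, the same order over wild-type arrays as NET1B, NET1D and IQD23. Its difference was -0.45 (SE 0.15, limma adjusted p = 0.233). The root hair expansins EXPA7 and EXPA18 differed by 0.19 (SE 0.07, adjusted p = 0.257, groups not overlapping) and 0.03. Neither had the order of PYK10 over the wild-type arrays, with 6.01, 5.89 and 5.99 for EXPA7 and 4.78, 4.80 and 4.91 for EXPA18. Summed over the 3 markers on a linear scale, the signal ran from 299.3 to 424.3 in wild type and from 290.9 to 312.5 in 35S:PCO1. PYK10 had the largest signal of the 3 on every array and so weighs most in that sum. None of the 3 lay at the floor, and their part in the values of NET1A or the other NET genes was not tested. The 1 measured flower and pollen marker of 7 written, LAT52, differed by 0.04 (linear signal 29.3 to 31.5 and 29.2 to 34.3), and 0 of 4 seed markers were measured. Of 8 markers of dividing cells 1 was measured, the Aurora kinase gene AUR1, at -0.19 (SE 0.08, adjusted p = 0.326), with a linear signal of 82.7 to 100.1 in wild type and 76.0 to 83.3 in 35S:PCO1.

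The remaining members encode structural proteins. ATMAP65-6, a microtubule-associated protein of the cross-linking family, had signals of 7.67, 7.54 and 7.68 against 7.72, 7.62 and 7.67, a difference of 0.04 (SE 0.06, interval -0.10 to 0.18). The actin genes ACT11 and ACT12 belong to the class expressed mainly in reproductive organs. ACT11 had signals of 5.46, 5.61 and 5.63 against 5.59, 5.68 and 5.62 and differed by 0.06 (SE 0.06). ACT12 lay near the floor, between 3.77 and 3.92 on all arrays, and differed by 0.06 (SE 0.05). None of these 3 genes passed, and the 6 actin control probe sets of the array, bright at 8.97 to 11.6, differed by -0.10 to 0.06 without passing either (adjusted p from 0.521 over the 64 controls).

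Regulators outside the 8 families were read from lists written from textbook knowledge. Of 82 genes in 3 lists 5 were measured, so neither pathway was assessed as a whole, and 0 rose, 0 fell and 5 did not pass in limma's test (1 with an unadjusted p under 0.05). Of the microtubule list, 3 of 37 genes, the median was -0.06. TON1B, a TON1 protein of the kind that TRM proteins bind, differed by -0.10 (SE 0.08, adjusted p = 0.683), or by -0.0021 without wild-type replicate 3. SPR1, a plus-end protein needed for straight growth, differed by 0.06 and GCP2, of the complex that nucleates microtubules, by -0.06. The groups of GCP2 did not overlap, with a narrow step from 6.206 in 35S:PCO1 to 6.211 in wild type. Of the actin list, 2 of 35 genes were measured, both subunits of the WAVE complex, which activates actin branching, with a median of -0.07. PIR, listed as PIR121 in the annotation, had signals of 7.62, 7.58 and 7.42 against 7.38, 7.28 and 7.35, so that its groups did not overlap, and differed by -0.20 (SE 0.07, adjusted p = 0.231). BRK1 differed by 0.06 (SE 0.06). Of the 10 calmodulins and kinesin light chain-related proteins that IQD proteins bind, 0 were measured. The annotation paired none of them with a probe set of its own, which does not show that the array lacks them.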

How the data were processed

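The authors deposited a log2 value for every probe set on every array, from RMA per the submitters' processing notes; its version and the set of arrays normalized together are not given in the sources used here. Such a summary evens out the arrays' distributions and gives no detection call, so a change in total RNA would not show. Values were used as deposited. Of 22810 probe sets, 64 controls were set aside and fitted on their own. GEO's platform annotation pairs 13513 of the other 22746 with 1 gene, 503 with several and 8730 with none. Symbols of all 50 members matched the RefSeq table of assembly TAIR10.1, from which their loci were read. No sequence or genome was used.

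Groups were compared with limma 3.58.1 in R 4.3.3 (lmFit and eBayes, constant prior, prior degrees of freedom 5.35), two-sided, with no covariate. An exact permutation test of 3 arrays against 3 cannot give a p below 0.1. The procedure was also run on simulated data whose changes were larger than the difference of any member. That run does not show how well differences of the size seen here are found. Members and gene lists were chosen with earlier results of these data known. Named with values were members past the threshold, the 3 smallest p and the brightest and dimmest probe set of each family, and up to 4 genes of each list; other members were described after their values were seen.

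Alternatives were dropping the dimmest 40% of probe sets, 2 further scalings (array medians, quantiles), weighting the arrays, a trended robust prior, no moderation of the variances, a replicate block, and the omission of single arrays.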

Additional observations from a re-analysis of the deposited data

Results flagged for a closer look

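Outside the main measurement, the control probe set for 25S ribosomal RNA (AFFX-Athal-25SrRNA_s_at) was lower in 35S:PCO1 by -1.26 on the log2 scale (SE 0.10, limma adjusted p = 1.81e-04 over the 64 controls), with means of 8.67 ± 0.20 for wild type and 7.41 ± 0.12 for the overexpressor (SD, n = 3 each). It was the 1 control that passed, it differed in the same direction as NET1A, and its part in the members' values was not tested.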

How the results depend on the processing

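The count of changed members (1) was 0 without the dimmest 40% of probe sets, a filter that by construction dropped 24 members, NET1A included, by keeping means of at least 5.45. Without moderation (the ordinary t statistic) it was 0, with 5 members at an unadjusted p under 0.05. It was 5 with array weights (IQD28, TRM22, NET1A, NET2D and TUB7, all lower) and 0 to 1 on leaving out 1 array. The count over all probe sets (191) became 2216 with array weights (4.55 for wild-type replicate 2, at most 1.42 for any other array), 0 without moderation (2472 had an unadjusted p under 0.05), and 5 to 489 on leaving out 1 array (489 on dropping wild-type replicate 1, 105 on dropping 35S:PCO1 replicate 2, 5 on dropping wild-type replicate 2 or either other 35S:PCO1 array). The count of listed regulators (0) became 1 with array weights (PIR, adjusted p = 0.0211), and 0 to 0 on leaving out 1 array. Beyond fewer samples or genes, the cause was not tested. With a replicate block the 3 counts were 228, 1 and 0, and NET1A kept its call (limma adjusted p = 0.0256). Arrays that share a number showed no common deviation (r of -0.061, -0.080 and -0.016 over probe sets). These values give no sign of pairing by number but cannot exclude it, as no label says how replicates were grown. Median centring moved all genes alike (median of all probe sets from 0.0036 to 0.022), which took IQD27 (0.014) and TUA6 (0.010) past 0. Other differences near 0 changed sign: TUA6 (0.0047) under quantile normalization and NET2C (0.030) with array weights. On leaving out 1 array the ranges that crossed 0 were -0.029 to 0.022 for IQD27, -0.13 to 0.036 for TRM28, -0.25 to 0.079 for NET1B, -0.069 to 0.015 for NET2C, -0.0054 to 0.066 for ATMAP65-6, -0.031 to 0.0031 for TUA6, -0.27 to 0.0011 for TUB1 and -0.029 to 0.087 for LAT52. Averaging a gene's probe sets could not change a value, as each member had 1. In members with both group means inside the floor (5 of 50) a fall could hardly be seen.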
